A study of Mus musculus with 4 samples.

Results

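PU.1 binding in B cells whose PU.1 gene lacks a working miR-155 target site was compared with PU.1 binding in wild-type B cells, using 2 of the 4 samples of a mouse ChIP-seq series. The members are the PU.1 peaks on chromosomes 1 to 19 of 2 deposited lists, 1114 of the 1132 peaks of the wild-type list and 2063 of the 2094 peaks of the knock-in list. The wild-type sample and the knock-in sample, written PU.1[155-/155-] in the labels, were both PU.1 immunoprecipitations from splenic B cells isolated by negative selection. Culture lasted 4 days (96 h) in the presence of lipopolysaccharide (5 ug/ml) and interleukin-4 (10 ng/ml) and ended with fixation in 2% formaldehyde. Lipopolysaccharide is a bacterial activator of B cells, and interleukin-4 is a T cell cytokine that directs antibody class switching. Each genotype is 1 library, titled a mix without a statement of what was mixed, and the sources used here do not give the strain or age of the mice. No difference between the genotypes therefore has a replicate check, and none was tested. The read depth of both libraries is unknown, so genotype and depth cannot be told apart.

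PU.1, encoded by Spi1, is a transcription factor of the ETS family that binds purine-rich DNA around a GGAA core. It is needed early in the B cell and myeloid lineages, and its level falls as B cells become antibody-secreting plasma cells. miR-155 is a microRNA induced in activated B cells that represses PU.1 through a site in the PU.1 messenger RNA, and the series title places Pax5, a keeper of B cell identity, downstream of this axis. The knock-in leaves the microRNA in place and removes its hold on this single target. The mature microRNA is shown because its seed, bases 2 to 8, is what a target site pairs with; the seed is in capitals. It is taken from RefSeq (GRCm38.p6, chr16:84714143-84714165, plus strand, in the Mir155 gene).
mmu-miR-155-5p: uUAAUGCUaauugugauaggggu

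Peak positions are on the mouse build mm9 and counted from 1. A genome or annotation of that build was not used here, so the sequence and the genes under the peaks, and marker genes of the B cells themselves, were not analysed here. The authors' score of a peak, which has no stated definition, was used as a rank within its own list. A score percentile gives the position of a peak counted from the lowest score, as a percentage of its list, with the strongest peak at 100. Peaks tied in score took the mean position of their tie in a percentile and the best position in a rank. A peak was called found in the other genotype when it overlapped a peak there by 1 bp or more.

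The knock-in cells had more called PU.1 peaks than the wild-type cells on all 19 chromosomes, and most wild-type peaks were found among them. Of the 1114 wild-type peaks, 832 were found in the knock-in list, which is 74.7% (exact Clopper-Pearson 95% interval 72.0 to 77.2). Of the 2063 knock-in peaks, 833 were found in the wild-type list, which is 40.4% (38.3 to 42.5). These intervals cover counting error over peaks only. As the peaks pair almost one to one, the contrast between the 2 shares follows from the lengths of the lists. Joined over both genotypes, the peaks made 2344 regions, of which 832 were called in both, 1230 in the knock-in alone and 282 in the wild type alone. The regions called in both were thus 35.5% of all regions, those of the knock-in alone 52.5% and those of the wild type alone 12.0%. The knock-in list was 1.85 times as long and covered 667 kb, 1.90 times the 351 kb of the wild-type list.

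The surplus of knock-in peaks was spread along the genome. The ratio of knock-in to wild-type peak number had a median of 1.90 over the chromosomes and ran from 1.47 on chromosome 19, with 72 against 49 peaks, to 2.61 on chromosome 18, with 60 against 23. Wild-type peaks were found in the knock-in least often on chromosome 8, at 26 of 41 peaks (63.4%, exact 95% interval 46.9 to 77.9), and most often on chromosome 18, at 20 of 23 (87.0%, 66.4 to 97.2). The share of the knock-in list with a wild-type counterpart was likewise lowest on chromosome 8, at 26 of 80 (32.5%, 22.4 to 43.9), and reached its highest value on chromosome 19, at 37 of 72 (51.4%, 39.3 to 63.4). Every one of the 19 intervals in each direction held the share of the whole list.

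**Figure D1:**
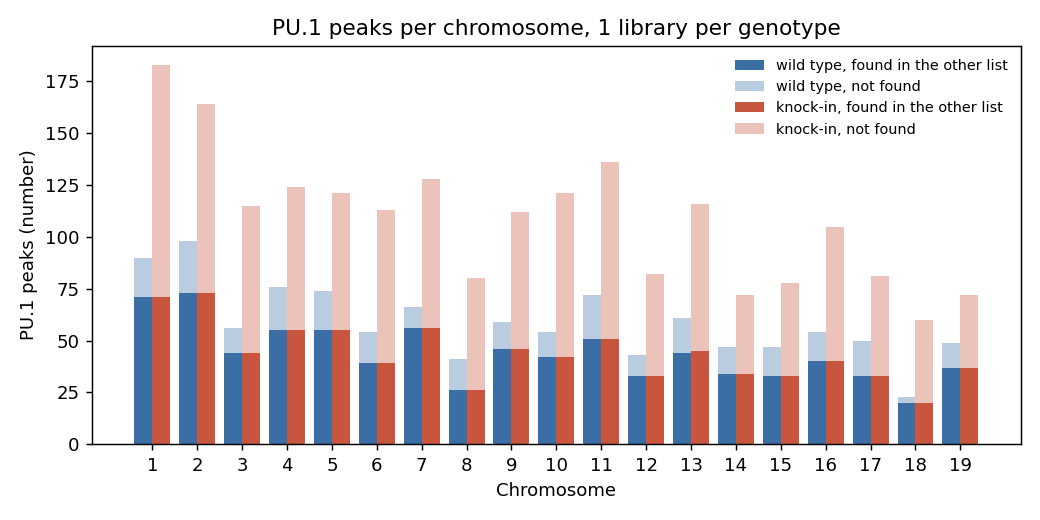
Number of PU.1 peaks (vertical axis) on each of chromosomes 1 to 19 (horizontal axis) in the wild-type list (blue) and the knock-in list (red); the solid part of a bar is the peaks found in the other list and the pale part those that were not. The knock-in bar is taller on all 19 chromosomes, from 1.47 times on chromosome 19 to 2.61 times on chromosome 18. The solid parts of the 2 bars are nearly equal because the overlapping peaks pair almost one to one.

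The strongest sites were called in both genotypes. Going down the wild-type list by score, the 168 highest peaks were all found in the knock-in, and the first that was not stood at rank 169. Going down the knock-in list, the 62 highest were all found in the wild type, and the first that was not stood at rank 63. Wild-type peaks were searched for in the longer list, so these ranks and the shares below are not compared between the genotypes. With each list cut into 10 equal classes by score, 111 of 111 wild-type peaks in the highest class were found in the knock-in (100%, exact 95% interval 96.7 to 100), against 54 of 112 (48.2%, 38.7 to 57.9) in the lowest class. In the knock-in list, 191 of 206 peaks of the highest class were found in the wild type (92.7%, 88.3 to 95.9), against 17 of 207 (8.21%, 4.86 to 12.8) in the lowest. The wild-type share was higher in each class than in the class below it. In the knock-in list this held but for the fourth class, at 19.8% (14.6 to 25.9), which lay under the third at 21.8% (16.4 to 28.1) with overlapping intervals.

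**Figure D2:**
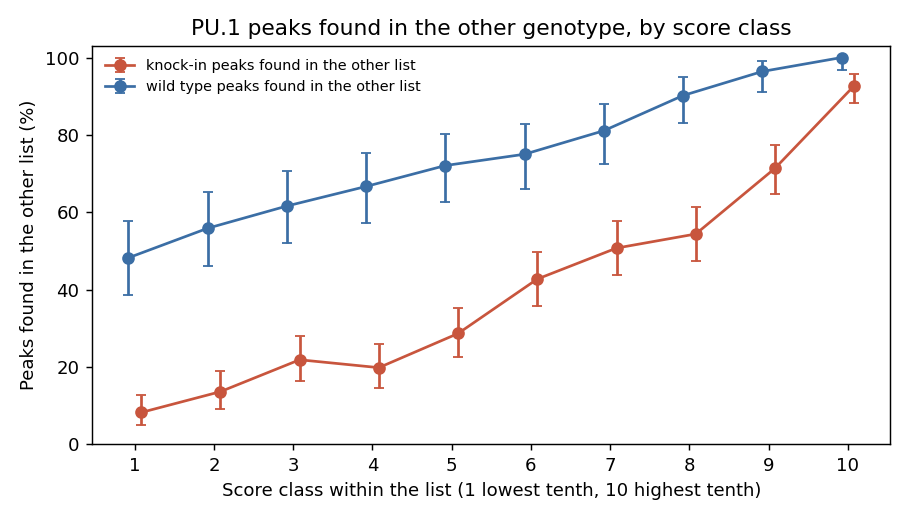
Share of peaks found in the other genotype (vertical axis, percent) by score class within the list (horizontal axis, lowest 10% at left, highest 10% at right); error bars are exact 95% binomial intervals over peaks. Wild-type peaks (blue) go from 48.2% to 100% and knock-in peaks (red) from 8.21% to 92.7%.

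Peaks without a counterpart stood lower in their own list, though not only at its bottom. The median score percentile was 59.3 (interquartile range 32.8 to 81.4) for the 832 wild-type peaks with a knock-in counterpart and 28.1 (12.4 to 47.8) for the 282 without one. The highest percentile among those 282 was 84.9. In the knock-in list it was 73.0 (52.8 to 88.9) for the 833 peaks with a wild-type counterpart and 34.8 (16.7 to 56.6) for the 1230 without one. The highest percentile among those 1230 was 97.0. Of the 557 wild-type peaks in the higher-scoring 50%, 64 were not found (11.5%, exact 95% interval 8.96 to 14.4). Of the 1031 knock-in peaks in that part of their list, 388 were not found (37.6%, 34.7 to 40.7). Over the whole lists the shares not found were 25.3% in the wild type and 59.6% in the knock-in. The lists searched differ in length, so these shares are not compared between the genotypes.

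The knock-in peaks with no wild-type counterpart included sites of high rank. The highest, at chr10:51173747-51174218, was 472 bp wide with a score of 208 and rank 63 of 2063, and the nearest wild-type peak lay 2071195 bp away. The next was at chr4:132316239-132316458, with a score of 203 and rank 69, and it lay 12373 bp from a wild-type peak. The third, at chr15:72848091-72848375, had a score of 188 and rank 84. These 3 sites stood among the highest-scoring 5% of the knock-in list. Ranks 112 and 119 were the sites at chr1:60998168-60998364 and chr2:117129169-117129481, with scores of 173 and 169. They were followed by sites on chromosome 7 (chr7:56164154-56164551, score 169), chromosome 16 (chr16:92874371-92874626, score 168) and chromosome 6 (chr6:52792667-52792866, score 165). The last of the leading 10 lay at chr7:38940835-38941216 with a score of 162 and at chr2:35612085-35612369 with a score of 160. Their order in the list is what chose these 10, so their ranks are a description.

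Wild-type peaks missing from the knock-in list were searched for in a list 1.85 times as long as their own, so their ranks are not set against those of the knock-in sites. The highest of them, at chr13:54313700-54313915, was 216 bp wide with a score of 125 and rank 169 of 1114, and the nearest knock-in peak lay 850828 bp away. It was followed by chr4:119726164-119726562 with a score of 116 and rank 193, and by chr17:13113994-13114291 with a score of 113 and rank 203. Sites at chr5:144886936-144887283 and chr13:51496634-51496979 had scores of 111 and 111 and stood at ranks 222 and 224. A site at chr6:136638579-136638983, with a score of 108, had a knock-in peak 6048 bp away. The other 4 of the leading 10 lay at chr11:95154441-95154710, chr3:126316419-126316736, chr8:117160367-117160744 and chr11:53905261-53905553, with ranks of 250 for the first and 270 for the other 3, which were tied.

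Peaks without a counterpart were seldom near-misses of the overlap rule. The closest of the 282 wild-type peaks lay 1048 bp from a knock-in peak, and the median distance was 137 kb (interquartile range 30.0 to 445). Of the 1230 knock-in peaks not found, 1 lay within 500 bp of a wild-type peak and 3 within 1000 bp, and the median distance was 406 kb (110 to 1243). Within 10 kb of the other list were 34 of the 282 wild-type peaks (12.1%) and 51 of the 1230 knock-in peaks (4.15%). The knock-in list is the longer, so a wild-type peak has more peaks to be near to, and these distances are not compared between the genotypes.

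Where a site was called in both genotypes, the peaks were compared for position and width. The pairs were chosen by overlap, which itself limits how far apart their centres can be, so the distances are a description. The 833 overlapping pairs had centres a median of 33.5 bp apart (interquartile range 15.5 to 62.5, highest 270), and 780 of them (93.6%) lay within 100 bp. The knock-in centre was at the higher coordinate in 414 pairs, at the lower in 416 and at the same base in 3, so the numbers on the 2 sides were nearly equal. The overlap made up a median of 87.7% of the wild-type peak and 86.8% of the knock-in peak. One-to-one pairing held for all but 1 wild-type peak, which lay on chromosome 13 within chr13:103479544-103480126 and overlapped 2 knock-in peaks, with centres 16.5 and 270.0 bp away.

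**Figure D3:**
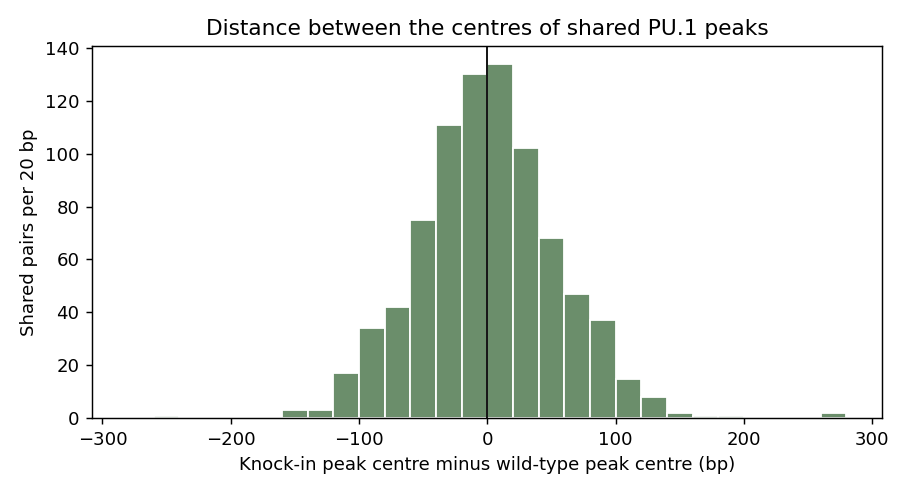
Distance from the wild-type to the knock-in peak centre (horizontal axis, bp) for the 833 shared pairs, counted in steps of 20 bp (vertical axis). The distances lie on both sides of 0 in near equal number, 414 higher and 416 lower, and 93.6% are within 100 bp.

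Taken as a set, the shared sites had peaks of like width in the 2 genotypes, though single sites often differed. The median was 320 bp in the wild type and 319 bp in the knock-in. The knock-in peak was the wider in 420 pairs and the wild-type peak in 408, and 5 pairs were equal. Knock-in width minus wild-type width had a median of 2.0 bp over the pairs (interquartile range -63.0 to 81.0). Widths of the same site in the 2 lists were weakly related, with a Spearman rho of 0.12 over the 833 pairs. Inside the lists, width went with score in the wild type (rho 0.30 over 1114 peaks) and not in the knock-in (rho -0.02 over 2063 peaks). The lowest score class had a median width of 280.5 bp in the wild type and 344 bp in the knock-in. The highest class had 364 bp and 352 bp. The lowest knock-in class was thus wider than the fifth and sixth classes of its list, at 291 and 309 bp. The narrowest knock-in class was the seventh, at 266 bp, while in the wild type the lowest class was the narrowest. These correlations are over peaks that share a library and a calling threshold.

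**Figure D4:**
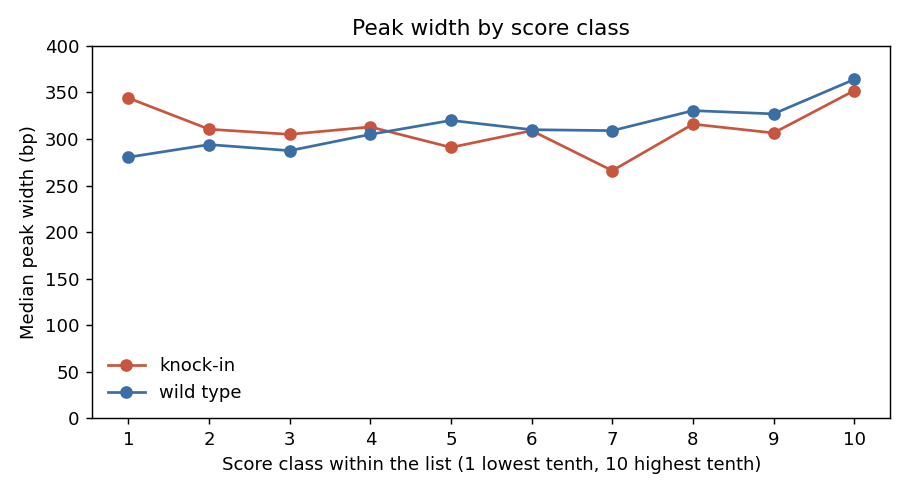
Median peak width (vertical axis, bp) by score class within the list (horizontal axis, lowest 10% at left, highest 10% at right) in the wild type (blue) and the knock-in (red). The lowest class is 280.5 bp wide in the wild type and 344 bp in the knock-in, and the highest 364 and 352 bp.

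Found peaks were also a little wider than the others in the wild type, at a median of 320 bp against 294 bp. This direction was seen in each of 4 equal parts of the wild-type list by score, from 305 against 274 bp in the lowest to 350 against 332 bp in the highest, where only 10 peaks were not found. In the knock-in the medians were 319 and 312 bp. The lowest of 4 such parts of the knock-in list had the opposite direction, at 321.5 bp for found and 328 bp for the 445 others, and the highest had 333 against 291 bp.

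The order of the shared sites by score was only partly the same in the 2 genotypes. Across the 833 pairs the scores had a Spearman rho of 0.49, and across the 419 pairs in the higher-scoring 50% of both lists also 0.49. The site with the highest score in both lists was at chr2:127834206-127835286, with a score of 927 and a width of 860 bp in the wild type, and 1069 and 1081 bp in the knock-in. Scores are not compared between the lists. It was also the widest peak of each list. Of the 10 highest wild-type sites, 5 were among the 10 highest of the knock-in, and the others reached down to rank 106 there. Of the 10 highest knock-in sites, the lowest stood at rank 159 of the wild type.

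After the site on chromosome 2, the shared sites with the highest combined percentile kept a high rank in each list. The site at chr2:35351455-35351815 was second in the wild type and eighth in the knock-in. The site at chr9:96299799-96300345 was sixth in the wild type and second in the knock-in. The site at chr9:48366806-48367169 was at ranks 9 and 7, chr16:84606397-84606774 at ranks 5 and 15, and chr14:103886128-103886587 at ranks 4 and 18. The last 4 of the leading 10 were chr18:66597358-66597871 at ranks 12 and 4, chr5:98447132-98447670 at rank 10 in each, chr4:149940246-149940684 at ranks 3 and 31, and chr8:47680881-47681429 at ranks 18 and 5. Their high rank in each list follows from the way they were picked.

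Other shared sites stood at opposite ends of the lists. Of the 833 pairs, 565 (67.8%) stood at a higher percentile of the whole knock-in list than of the whole wild-type list. Ranking among the 833 shared sites alone takes out any general offset between the lists. On that scale 399 pairs stood higher in the knock-in and 432 lower. Both lists have the same mean percentile on that scale, so a near-even split follows largely from the ranking itself. On the same scale 274 pairs (32.9%) lay within 10 percentile points of each other and 83 (9.96%) were more than 50 points apart. By percentile of the whole lists, which is how the sites named here were picked, the widest gap upward was at chr1:35917718-35917982, with rank 1101 of 1114 in the wild type and rank 72 of 2063 in the knock-in. Among the shared sites this was percentile 0.66 of the wild type and percentile 91.7 of the knock-in. The site at chr5:116074148-116074394 had rank 1072 in the wild type and rank 96 in the knock-in. The other 3 sites with the largest upward gaps in whole-list percentile were at chr15:103283972-103284292, chr6:72325166-72325471 and chr10:93796026-93796426, with knock-in ranks of 247, 207 and 280. All 5 stood between ranks 1054 and 1101 of the 1114 wild-type peaks.

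In the opposite direction, chr15:61372347-61372805 stood at rank 180 in the wild type and at rank 2006 of 2063 in the knock-in. The site at chr6:48782451-48782789 had rank 203 in the wild type and the same knock-in rank of 2006. The site at chr11:99048096-99048437 had rank 80 in the wild type and 1475 in the knock-in, which among the shared sites was percentile 90.5 against 9.54. Its knock-in score was held by 72 peaks of that list, all given rank 1475. The last of these 5 were chr5:17518999-17519418 at ranks 306 and 1949, and chr13:83711186-83711541 at ranks 203 and 1662. Ranks 180, 203, 1662 and 2006 in this paragraph belong to ties. The knock-in scores of the sites on chromosomes 15, 6 and 5 were 50.8, 50.8 and 51.6, near the lowest of that list, 50.08. Those on chromosomes 11 and 13 were 59.49 and 57.18. The centres of the 10 sites with the largest gaps in either direction were between 14.5 and 55.0 bp apart, so the peaks of each pair lay nearly on the same bases.

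**Figure D5:**
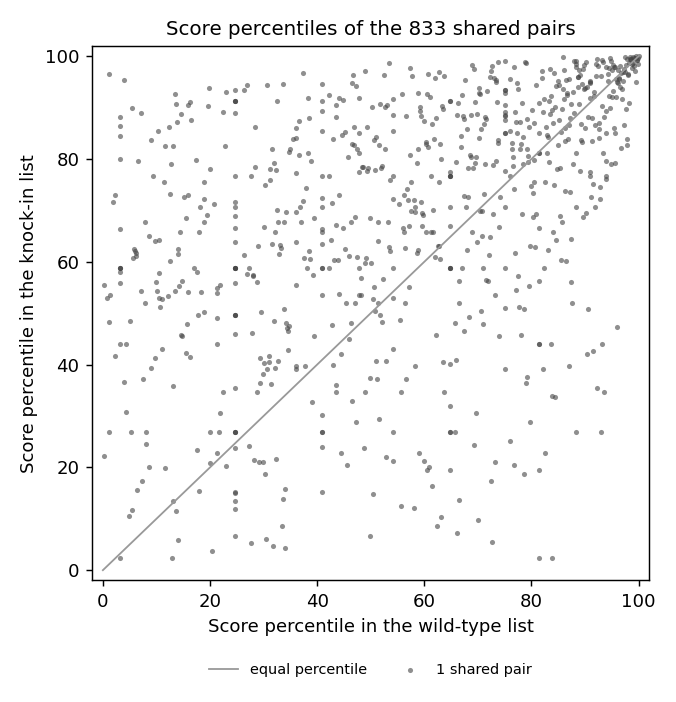
Score percentile of each shared site in the wild-type list (horizontal axis) and in the knock-in list (vertical axis), 1 point per overlapping pair, 833 in all; the line marks equal percentiles. Percentiles are of the whole lists, which differ in length, and most points (565) lie above the line. Ranked among the 833 shared sites alone, which gives both lists the same mean percentile, 399 stood higher in the knock-in and 432 lower. Points near the upper left and lower right corners are sites with a low rank in one genotype and a high rank in the other.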

How the data were processed

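PU.1 ChIP-seq peak lists of 1 wild-type and 1 knock-in library were analysed; the miR-155 knockout list was left out and the input DNA sample was not analysed here. The authors' tools, per the submitters' processing notes, were MACS, Bowtie and Trim Galore, on build mm9. Their versions, settings and control are not stated in those notes. The deposited score of each peak has no stated definition, and it was used to rank and describe peaks within their own list. Peaks were called per sample. With 1 library for each genotype replicates cannot be compared, and depth is unknown. To each deposited start 1 was added. Peaks on chromosome 1 reached 197028142, past the end of its last GRCm38 gene at 195291439, so the GRCm38 gene table was not used for positions.

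Shared meant an overlap of at least 1 bp on chromosomes 1 to 19. Score classes split ties by position. Shares have exact Clopper-Pearson 95% intervals. Named sites were the 10 shared sites with the highest summed percentile, the 5 with the largest percentile gap in each direction, the 10 highest peaks without a counterpart in each list, the 5 widest, peaks with several counterparts and the largest groups within 10 kb. The members and these rules were chosen with earlier results of these data known. The overlap functions were tested on simulated data. Tools were scipy 1.17.1, numpy 2.4.6, pandas 2.3.3 and matplotlib 3.10.9 under Python 3.11.15.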

Additional observations from a re-analysis of the deposited data

How the results depend on the processing

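Of 32 alternative values over 8 results, 21 lay within the main 95% interval of a share or moved another kind of value by less than 1.5 times. Shares and the ratio of peak numbers cannot be negative. Only the differences and the correlation could therefore turn direction, and 0 did. In the wild-type list, the share with a knock-in counterpart was 70.5% with a reciprocal overlap of 50%, 70.02% with centres at most 100 bp apart, 59.9% with both lists held to 1114 peaks and 88.5% when only the wild-type list was reduced to its higher-scoring 50%. In the knock-in list, the share with a wild-type counterpart was 38.1%, 37.8%, 59.9% and 62.4% under the same settings, where the knock-in list was the one reduced. A stricter overlap can only lower a share, and shortening the searched list alone likewise. With both lists cut to their higher-scoring 50% the shares were 75.2% and 40.6%. Because peaks pair almost one to one, the contrast between the 2 shares is set by the list lengths wherever both lists are cut. The difference in median width between found and other peaks was 15.0 bp against 26.0 bp in the wild type with the higher-scoring 50% of each list. In the knock-in it was 1.0 bp with a reciprocal overlap of 50% and 30.5 bp with the higher-scoring 50%, against 7.0 bp; the cause was not tested. No paired analysis was possible because there is 1 library for each genotype, which also leaves no replicate to drop. The planned gene and motif results need an mm9 genome and were not run. Since depth is unknown, an absent peak cannot be read further: a site below the calling threshold and an unbound site look the same.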

Other observations

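PU.1 peaks also stood in groups. With peaks up to 10 kb apart joined, the wild-type list had 35 groups, each of 2 peaks, and the knock-in list had 66, of which 2 held 3 peaks. Peaks in groups made up 6.28% of the wild-type list and 6.50% of the knock-in list. One knock-in group of 3 lay at chr9:65383005-65390415 and had 2 peaks found in the wild type, with a peak at chr9:65389533-65389774 that missed the nearest wild-type peak by 239 bp. The other lay at chr10:95826526-95837179 and had 1 of its 3 peaks found in the wild type. Of the 70 wild-type peaks in groups, 47 (67.1%) were found in the knock-in, against 75.2% of those standing alone. The share over the whole wild-type list was 74.7%. Of the 35 wild-type groups, 15 had both peaks found in the knock-in, 17 had 1 and 3 had none. Those 3 groups, singled out after their values were seen, lay at chr13:54313700-54318957, chr14:75579087-75579795 and chr15:84515995-84522571. The first of them holds the highest-scoring wild-type peak that was missing from the knock-in. Of the 134 knock-in peaks in groups, 66 (49.3%) were found in the wild type, against 39.8% of those standing alone. The share over the whole knock-in list was 40.4%, and 16 of the 66 groups had no peak found. The direction differed between the 2 lists, and neither contrast was tested.

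Many peaks shared a score with another peak of their list, 425 of 1114 in the wild type (38.2%) and 1156 of 2063 in the knock-in (56.0%). The most frequent score was 59.49 in both lists, held by 36 wild-type and 72 knock-in peaks. Ranks within such ties carry no order.

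The widest peaks of each list after the site on chromosome 2 were all narrower than that site. In the wild type the next was at chr6:124679817-124680435, 619 bp wide, and in the knock-in at chr7:89066343-89067009, 667 bp wide, and both were found in the other list. Of the 5 widest knock-in peaks, those at chr2:180927678-180928316 and chr2:122234346-122234974, were 639 and 629 bp wide and had no wild-type counterpart. Of the 5 widest wild-type peaks, the one at chr14:122337691-122338254, 564 bp wide, had no knock-in counterpart.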
